A study of Homo sapiens with 10 samples.

Results

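The transcription regulators that set a B cell apart from a plasma cell were followed in bortezomib-resistant and matched cells of HBL2 and JEKO, both lines of mantle cell lymphoma. They were 10 genes of 19775 with a probe set of their own on the array: IRF4, PRDM1, XBP1, BHLHA15 and ELL2 on the plasma cell side, and PAX5, BCL6, BACH2, POU2AF1 and SPIB on the B cell side. The genes were chosen by symbol for their known roles, with earlier results of these data known. All 24 of their probe sets were read, and the one with the highest mean over the 10 arrays stands for its gene. All 10 passed a filter on low values and were tested among 14529 genes, and 20 of the 24 probe sets passed it.

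RNA came from cultured cells that were growing logarithmically, with 1 sample on each array. HBL2 BR had 3 arrays and HBL2 PT 3 arrays, and JEKO BR had 2 arrays and JEKO PT 2 arrays. BR marks cells in which resistance was induced with bortezomib, an inhibitor of the proteasome, and PT is taken to mean parental, which is known of the study but not spelled out in the labels. No drug dose, length of selection or number of resistant clones is given in the sources used here, so a difference between BR and PT describes these cultures. Whether the replicates were grown separately is not said, so the spread behind the p-values may be technical.

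As background, B cells and plasma cells are held apart by regulators that repress each other. PAX5 keeps B cell identity, BCL6 runs the germinal centre state, BACH2 delays the exit from the B cell state, and POU2AF1 (OBF1) and SPIB drive B cell gene expression, the first as a coactivator of octamer-binding factors and the second as an ETS factor. IRF4 and PRDM1 (BLIMP1) start the plasma cell program, XBP1 and BHLHA15 (MIST1) build its secretory machinery, and ELL2 is an elongation factor that favours the secreted form of immunoglobulin messages. Plasma cells secrete much protein and rely on the proteasome to clear what misfolds, and bortezomib is used against their tumours as well as against mantle cell lymphoma.

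Values are the deposited scores, which run from 0 to 4.99 with a median of 0.73 on every array. The set of values is the same on each array, so a score reflects rank alone, and a difference is given in deposited units, not as a fold. Most markers of B cells and mantle cell lymphoma were high, with the exception of CD5: CCND1 scored 2.49 or more on all 10 arrays, MS4A1 2.73 or more and CD79A 2.12 or more, and SOX11 lay between 1.34 and 2.10. CD5, a T cell antigen that mantle cell lymphoma usually carries, averaged 0.552 in HBL2 BR and 0.671 in HBL2 PT, both under the array median, and 0.822 in JEKO BR and 0.949 in JEKO PT. Of 7 such markers tested, CD79A and CD79B fell in HBL2 BR and CD22 rose in JEKO BR. The CD79B call was lost in 4 of 22 alternatives, namely as a median of its probe sets (adjusted p = 0.30) and on omitting HBL2 PT replicate 1 (0.057), HBL2 BR replicate 1 (0.084) or HBL2 BR replicate 2 (0.086). The CD22 call was lost in 12 of 23, including on omitting any 1 JEKO array (adjusted p = 0.058 to 0.37), HBL2 BR replicate 1 (0.053) or HBL2 BR replicate 2 (0.057). Of 7 T and NK cell markers, 2 reached the array median on average in HBL2 BR and 2 in HBL2 PT, and 1 in each JEKO group. Their summed score was 3.30 to 4.17 in HBL2 BR, 3.93 to 4.32 in HBL2 PT, 4.75 to 5.04 in JEKO BR and 4.12 to 4.30 in JEKO PT. CD7 rose in JEKO BR by 0.62 ± 0.14 (SE, limma adjusted p = 0.017), a call lost without JEKO PT replicate 1 (0.16), JEKO PT replicate 2 (0.052) or JEKO BR replicate 2 (0.24). The CD7 rise was not called on percentile ranks (limma adjusted p = 0.37) or normal scores (0.20) either. Of 6 myeloid markers measured, 0 reached the median in HBL2 BR and 2 in HBL2 PT (LYZ and ITGAM), and their summed score was 2.53 to 3.04 in HBL2 BR, against 3.75 to 4.58 in HBL2 PT. In JEKO 1 reached it in each group, with sums of 3.01 to 3.28 in BR and 2.44 to 3.37 in PT. LYZ fell in HBL2 BR by 0.59 ± 0.14 (adjusted p = 0.0088). Outside HBL2 PT its scores were 0.612 or less, under the array median. It passed the filter through HBL2 PT alone, so its fall adds no support. CD14 averaged 0.304 and 0.233 in HBL2 BR and HBL2 PT, and the part of such cells in the results was not tested. Of 7 stromal and epithelial markers, 2 reached the median in HBL2 BR and 3 in HBL2 PT, and 5 in each JEKO group. They summed to 4.87 to 5.2 in HBL2 BR and 5.13 to 5.65 in HBL2 PT, and to 5.32 to 5.96 in JEKO BR and 6.24 to 6.27 in JEKO PT, and PECAM1 fell by 0.47 ± 0.084 in HBL2 BR and by 0.44 ± 0.10 in JEKO BR. PECAM1 lost its JEKO call if JEKO PT replicate 1 (adjusted p = 0.29) was omitted, or JEKO BR replicate 1 (0.12) or JEKO BR replicate 2 (0.16). In such bulk samples, fewer cells of a kind and less RNA per cell cannot be told apart.

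In HBL2, the regulators that were called divided by the side given to them here. Of the 10, 7 were called changed in BR cells at an adjusted p under 0.05 (limma, adjusted over all genes tested), against 11.8% of all genes. There were 4 higher, against 4.91% of all genes, and 3 lower, against 6.86%. Because the 10 were chosen and placed on a side with earlier results of these data known, neither these counts nor the division by side is an independent test. The 4 that rose (IRF4, PRDM1, XBP1 and ELL2) had been placed on the plasma cell side and the 3 that fell (BACH2, POU2AF1 and SPIB) on the B cell side. PAX5, BCL6 and BHLHA15 were not called. The arrays of BR and PT did not overlap for the 7 called genes, as in 27.3% of all genes (12.8% higher and 14.5% lower). The median change of the 10 was 0.003, with rises on one side and falls on the other, and the median size was 0.41 units, against 0.091 over all genes.

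**Figure D1:**
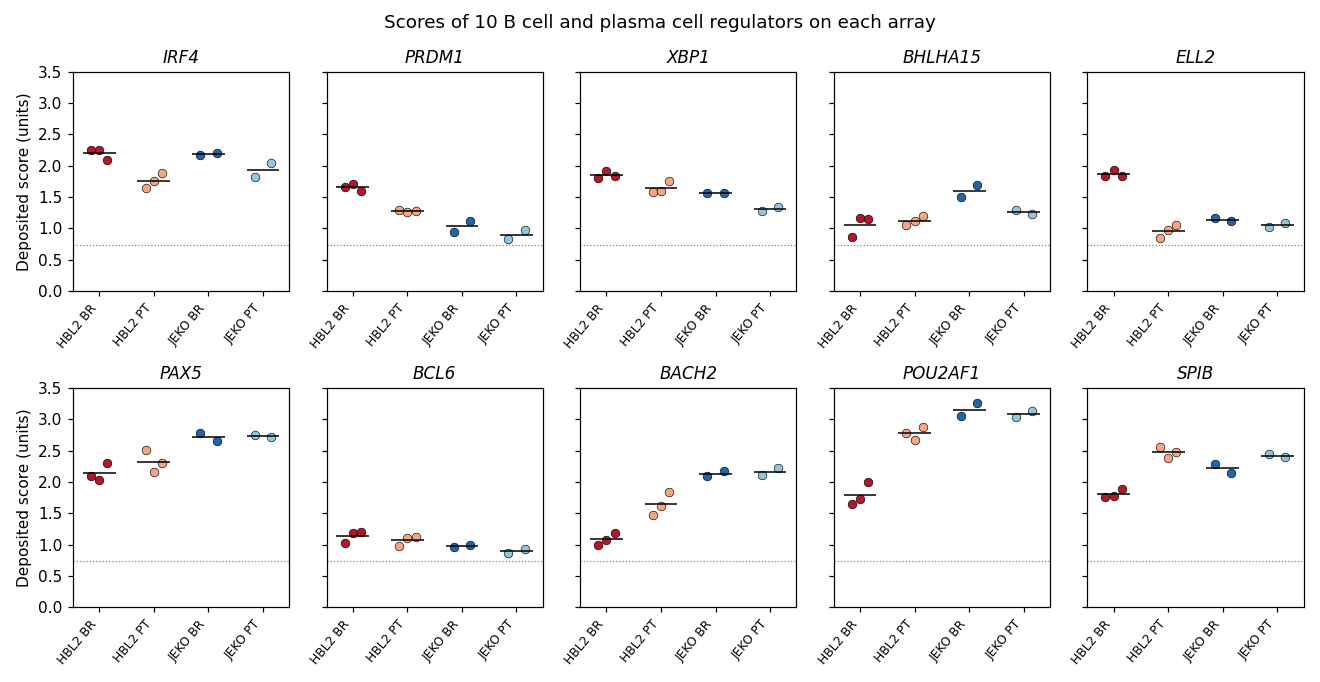
Deposited score of each regulator on every array (points) with the group mean (bar), for HBL2 BR and PT and JEKO BR and PT; the dotted line is the array median of 0.73. In HBL2 the BR points of ELL2 lie at 1.83 to 1.94, above PT at 0.851 to 1.05, and those of POU2AF1 at 1.65 to 1.99, below PT at 2.67 to 2.87, while the JEKO groups lie close together for both genes.

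Promoter windows of 300 bases (250 before and 50 after the start site, RefSeq, GRCh38.p14) were found for 8 of the 10 regulators and searched on both strands for 8 sequences that the regulators or their partners bind. The 250 bases before the start site are shown for SPIB, which fell in HBL2 BR, for IRF4, which rose, and for BHLHA15, which holds a match. Capitals mark matches, and a run without capitals has none.
SPIB, chr19:50418688-50418937, plus strand: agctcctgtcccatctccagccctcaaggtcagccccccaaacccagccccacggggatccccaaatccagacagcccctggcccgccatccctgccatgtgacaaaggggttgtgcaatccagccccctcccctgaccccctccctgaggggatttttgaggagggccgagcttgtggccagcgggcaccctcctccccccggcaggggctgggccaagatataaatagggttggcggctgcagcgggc
IRF4, chr6:391502-391751, plus strand: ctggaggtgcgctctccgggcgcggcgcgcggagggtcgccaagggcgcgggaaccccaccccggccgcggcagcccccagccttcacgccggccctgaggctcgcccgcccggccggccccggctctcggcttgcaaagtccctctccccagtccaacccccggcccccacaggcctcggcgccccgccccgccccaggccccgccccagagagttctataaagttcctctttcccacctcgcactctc
BHLHA15, chr7:98211189-98211438, plus strand: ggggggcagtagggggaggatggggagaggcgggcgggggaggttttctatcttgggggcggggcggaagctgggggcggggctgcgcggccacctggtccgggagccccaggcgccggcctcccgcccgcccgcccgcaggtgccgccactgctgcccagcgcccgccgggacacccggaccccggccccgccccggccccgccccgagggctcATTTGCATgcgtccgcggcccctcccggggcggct

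The BHLHA15 window holds ATTTGCAT, the octamer ATGCAAAT on the other strand, which OCT1 and OCT2 bind with POU2AF1, starting 35 bases before the start site. The octamer is in 1.77% of 35116 promoter windows. BHLHA15 was not called in HBL2, where POU2AF1 fell. Of the other windows, that of PAX5 holds CCACGTC, the XBP1 core GACGTGG on the other strand (3.13% of windows), and that of BCL6 holds TTCTAGGAA, the BCL6 core TTCCTAGAA on the other strand (0.37%). The windows of IRF4, PRDM1, XBP1, BACH2 and SPIB hold none of the 8, which were these 3, the PRDM1 core AGNGAAAG (7.99% of windows), the ETS-IRF composite (2.82%), the interferon response sequence (3.57%, with letters in common with the PRDM1 core), the MAF recognition core (0.15%) and the E-box CAGCTG (17.95%). A match is a run of letters and not a shown binding site, and its absence says nothing of other sites outside the window.

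ELL2 had the largest rise among the regulators in HBL2. Its scores were 1.83, 1.94 and 1.84 in HBL2 BR, against 0.851, 0.968 and 1.05 in HBL2 PT. The groups were far apart, and the change was 0.91 ± 0.066 (SE, adjusted p = 1.41e-07), larger in size than that of 99.6% of genes tested. In JEKO its scores were 1.17 and 1.12 in BR and 1.01 and 1.09 in PT. The JEKO groups did not overlap either, but lay close, and the change of 0.088 ± 0.080 was not called (adjusted p = 0.65, 95% interval -0.083 to 0.26).

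IRF4, the factor whose high level marks plasma cells, scored 2.25, 2.25 and 2.09 in HBL2 BR, against 1.64, 1.76 and 1.89 in HBL2 PT. Every BR array lay above every PT array, and the rise of 0.43 ± 0.076 (adjusted p = 0.001) brought HBL2 BR to a mean of 2.20 ± 0.095 (SD, n = 3), beside 2.19 ± 0.021 (SD, n = 2) in JEKO BR. In JEKO the scores were 2.18 and 2.21 in BR and 1.82 and 2.05 in PT. The JEKO BR arrays lay above both PT arrays, with a difference of 0.25 ± 0.093 (adjusted p = 0.15, 95% interval 0.056 to 0.45).

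PRDM1, the repressor that ends the B cell program, scored 1.67, 1.70 and 1.60 in HBL2 BR, against 1.29, 1.26 and 1.27 in HBL2 PT. The groups did not overlap, its PT arrays had an SD of 0.014, and the rise was 0.38 ± 0.065 (adjusted p = 8.93e-04). The JEKO scores were 0.95 and 1.12 in BR and 0.833 and 0.97 in PT. These groups overlapped, and the difference of 0.14 ± 0.080 was not called (adjusted p = 0.42). The call in HBL2 rests on the brightest probe set: taking the median of its 3 probe sets ended it (0.18, adjusted p = 0.10), and so, narrowly, did percentile ranks (adjusted p = 0.0502).

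XBP1, the factor of the unfolded protein response that enlarges the secretory apparatus, lay higher on every BR array than on the PT arrays of its line. It scored 1.81, 1.92 and 1.84 in HBL2 BR, against 1.58, 1.59 and 1.76 in HBL2 PT, and 1.57 and 1.56 in JEKO BR, against 1.28 and 1.34 in JEKO PT. On this probe set, the brighter one, the gap was clear of overlap in both lines. The rise in HBL2 was 0.21 ± 0.064 (adjusted p = 0.042), and the JEKO difference of 0.25 ± 0.078 missed the threshold (adjusted p = 0.086). The HBL2 call was lost in 15 of 23 alternatives, among them the removal of each single array except HBL2 PT replicate 3 (adjusted p = 0.054 to 0.19), and JEKO gained one in 4 of 23, one of them without HBL2 PT replicate 3 (adjusted p = 0.033). The array does not show whether XBP1 messages were spliced to their active form.

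BHLHA15, a factor of secretory cells, was not called in either line. It scored 0.863, 1.17 and 1.15 in HBL2 BR, against 1.06, 1.11 and 1.2 in HBL2 PT, and 1.5 and 1.69 in JEKO BR, against 1.29 and 1.23 in JEKO PT. The HBL2 groups overlapped, with HBL2 BR replicate 1 the lowest array (change -0.062 ± 0.082, adjusted p = 0.72), while both JEKO BR arrays lay above PT. The JEKO difference of 0.33 ± 0.10 was the largest of the 10 regulators in that line and missed the threshold (adjusted p = 0.076). It passed with each line fitted alone (adjusted p = 0.031) and without HBL2 BR replicate 1 (adjusted p = 0.039).

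**Figure D2:**
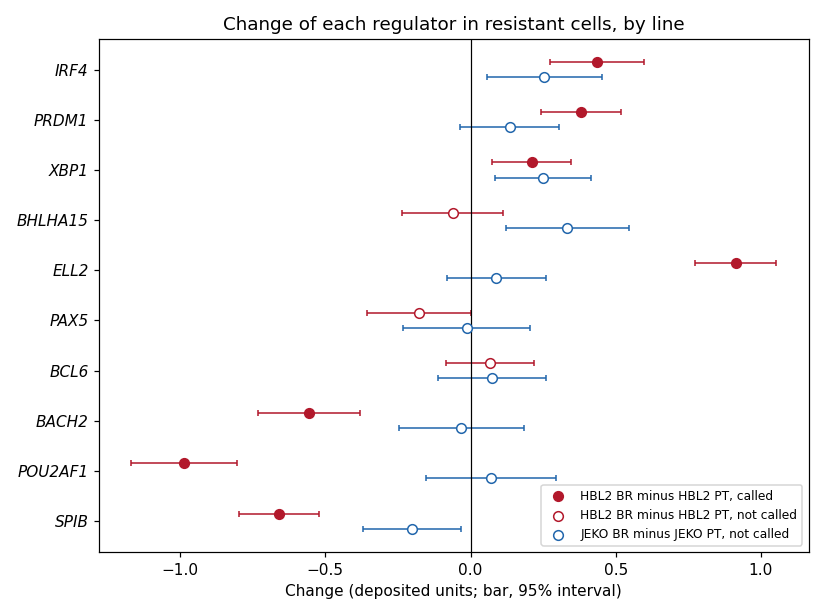
Change of each regulator, BR minus PT, in HBL2 (red) and JEKO (blue), in deposited units with 95% intervals of the limma fit; filled points were called. The HBL2 changes run from -0.99 for POU2AF1 to 0.91 for ELL2, and the JEKO changes from -0.20 for SPIB to 0.33 for BHLHA15.

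On the B cell side, POU2AF1 fell most in HBL2. Its scores were 1.65, 1.72 and 1.99 in HBL2 BR, against 2.79, 2.67 and 2.87 in HBL2 PT. The groups did not overlap, and the change was -0.99 ± 0.086 (adjusted p = 9.05e-07). Its mean rank was percentile 91.1 in HBL2 BR, against percentile 98.9 in HBL2 PT. In JEKO it scored 3.05 and 3.26 in BR and 3.03 and 3.14 in PT, which overlapped (change 0.069 ± 0.11, adjusted p = 0.81).

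SPIB scored 1.77, 1.78 and 1.90 in HBL2 BR, against 2.56, 2.38 and 2.48 in HBL2 PT. It fell by 0.66 ± 0.065 (adjusted p = 3.39e-06), with no overlap. In JEKO the scores were 2.29 and 2.15 in BR and 2.45 and 2.39 in PT. Both JEKO BR arrays lay below PT, and the change of -0.20 ± 0.080 was not called (adjusted p = 0.19, 95% interval -0.37 to -0.031).

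BACH2 scored 0.995, 1.08 and 1.18 in HBL2 BR, against 1.47, 1.61 and 1.84 in HBL2 PT. The groups did not overlap, and it fell by 0.56 ± 0.083 (adjusted p = 2.55e-04). The JEKO scores, 2.09 and 2.18 in BR and 2.11 and 2.22 in PT, overlapped and differed by -0.032 ± 0.10 (adjusted p = 0.92).

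PAX5 and BCL6 were not called in either line. PAX5 scored 2.10, 2.03 and 2.31 in HBL2 BR, against 2.51, 2.17 and 2.30 in HBL2 PT, overlapping groups with a change of -0.18 ± 0.084 (adjusted p = 0.22, 95% interval -0.36 to 0.0016), and in JEKO 2.78 and 2.66 in BR and 2.75 and 2.72 in PT (change -0.014 ± 0.10). BCL6 scored 1.02, 1.19 and 1.2 in HBL2 BR, against 0.974, 1.11 and 1.13 in HBL2 PT (change 0.068 ± 0.072, adjusted p = 0.64), and 0.954 and 0.988 in JEKO BR, against 0.865 and 0.93 in JEKO PT (change 0.074 ± 0.088, adjusted p = 0.74). The intervals leave room for changes of PAX5 as large as the rise of XBP1, so these values do not show that the gene was level.

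In JEKO, 0 of the 10 regulators were called by limma, against 4.28% of all genes. At an unadjusted p under 0.05 the count was 4 (IRF4, XBP1, BHLHA15 and SPIB), against 17.6% of genes. The arrays of BR and PT did not overlap for 6 of the 10, against 50.8% of all genes. Of these, 5 were higher, against 28.3%, and 1 lower, against 22.5%. The median size of change was 0.11 units, against 0.097 over all genes. The beta-actin probe sets gave a 5' minus 3' value of -1.01 in the second JEKO BR array, while the remaining JEKO arrays gave -0.82 to -0.70. Lower values were seen in HBL2 PT replicate 1 (-1.25) and HBL2 BR replicate 3 (-1.04), and these 3 arrays were the lowest. Whether RNA quality takes part in the values of either line was not tested beyond 2 fits, with beta-actin as a covariate and without those 3 arrays. The covariate fit called XBP1 alone of the 10 in JEKO (adjusted p = 0.041) and 7 of the 10 in HBL2. Without those 3 arrays, which left 1 array in JEKO BR, the HBL2 change of XBP1 was 0.19 and lost its call.

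The difference between the lines was tested directly. The HBL2 change exceeded the JEKO change for ELL2 (0.83 ± 0.10, adjusted p = 1.10e-04) and lay below it for POU2AF1 (-1.05 ± 0.14, adjusted p = 1.42e-04), SPIB (-0.46 ± 0.10, adjusted p = 0.010) and BACH2 (-0.52 ± 0.13, adjusted p = 0.019). These were 4 of the 10, against 8.71% of all genes, with 1 above 0, against 2.95%, and 3 below, against 5.76%. BACH2 missed the threshold if HBL2 BR replicate 1 (adjusted p = 0.053) was omitted, or JEKO PT replicate 1 (0.10) or JEKO BR replicate 2 (0.11). SPIB missed it if JEKO PT replicate 2 (0.054) or JEKO BR replicate 1 (0.067) was omitted. For IRF4 (0.18 ± 0.12, adjusted p = 0.43), PRDM1 (0.25 ± 0.10, adjusted p = 0.17) and XBP1 (-0.040 ± 0.10, adjusted p = 0.87) no difference was called. For BHLHA15 it was -0.40 ± 0.13 (adjusted p = 0.072).

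The lines also differed in their PT cells. Between HBL2 PT and JEKO PT, 5 of the 10 were called, against 23.1% of all genes, with 2 higher in HBL2 PT, against 13.9%, and 3 lower, against 9.25%. The arrays did not overlap for 7, against 47.1% of all genes, with 3 higher, against 26.3%, and 4 lower, against 20.9%. PRDM1 was higher in HBL2 PT by 0.37 ± 0.073 and XBP1 by 0.33 ± 0.071, while BACH2 was lower by 0.52 (-0.52 ± 0.093), PAX5 by 0.41 (-0.41 ± 0.094) and POU2AF1 by 0.31 (-0.31 ± 0.096). The adjusted p-values of the 5 were 0.0015, 0.003, 6.47e-04, 0.0047 and 0.028 in that order. With percentile ranks PAX5 (adjusted p = 0.13) and POU2AF1 (adjusted p = 0.86) were not called. POU2AF1 was not called on normal scores (adjusted p = 0.17) or with no intensity trend (adjusted p = 0.066) either. The calls of PRDM1 and XBP1 were lost with the median over probe sets (0.041 and 0.073), and those of PAX5 (adjusted p = 0.052) and POU2AF1 (adjusted p = 0.070) without JEKO PT replicate 1. POU2AF1 also lost its call without JEKO PT replicate 2 (adjusted p = 0.21) or HBL2 PT replicate 2 (adjusted p = 0.10).

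Between the resistant cells 8 of the 10 were called, against 28.1% of all genes, with 3 higher in HBL2 BR, against 14.0%, and 5 lower, against 14.1%. The arrays did not overlap for 9, against 54.6% of all genes, with 4 higher, against 28.0%, and 5 lower, against 26.6%. HBL2 BR was higher than JEKO BR for ELL2 (0.73 ± 0.073), PRDM1 (0.62 ± 0.073) and XBP1 (0.29 ± 0.071). As a median of their probe sets PRDM1 (0.18, adjusted p = 0.092) and XBP1 (0.088, adjusted p = 0.44) were not called, and XBP1 just missed the threshold without the 3 arrays of lowest beta-actin values (0.30, adjusted p = 0.050). HBL2 BR was lower for POU2AF1 (-1.37 ± 0.096), BACH2 (-1.05 ± 0.093), PAX5 (-0.57 ± 0.094), BHLHA15 (-0.53 ± 0.092) and SPIB (-0.41 ± 0.073). IRF4 differed by 0.0056 ± 0.085 (95% interval -0.17 to 0.19) and BCL6 by 0.17 ± 0.080, neither called. The comparisons between lines use the same arrays as those within lines and are not independent of them. BACH2 had the order HBL2 BR, HBL2 PT, then both JEKO groups from low to high (means 1.09, 1.64, 2.13 and 2.17), with the JEKO groups not told apart. PRDM1 ran the other way on its brightest probe set. Its means there were 1.65 in HBL2 BR, 1.27 in HBL2 PT, 1.04 in JEKO BR and 0.90 in JEKO PT. The JEKO groups of PRDM1 overlapped and were not told apart either. On its dimmest probe set HBL2 BR stayed highest, but HBL2 PT was lowest (mean 0.841), under JEKO BR (0.874) and JEKO PT (0.907). The remaining probe set kept the order of the brightest. On neither of these dimmer probe sets was a difference between the lines called.

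The further probe sets of a gene were fitted one by one, with p-values adjusted over 27577 probe sets, of which 8.07% were called in HBL2, 2.53% in JEKO, 5.59% for the difference of changes, 18.1% between the PT cells and 21.8% between the BR cells. The HBL2 rise of XBP1 was not called over this larger table (adjusted p = 0.062). Its dimmer probe set was called in neither line (0.24 ± 0.13 in HBL2, where the groups overlapped, and 0.17 ± 0.16 in JEKO). Between the lines that probe set was lower in HBL2, by 0.18 (-0.18 ± 0.15) in PT and 0.11 (-0.11 ± 0.15) in BR. Those differences were not called and were opposite in sign to the brighter probe set. For SPIB the dimmer probe set fell in HBL2 as well (-0.60 ± 0.069, adjusted p = 3.4e-05), with scores of 1.16, 1.05 and 1.24 in HBL2 BR, against 1.83, 1.76 and 1.66 in HBL2 PT. In JEKO its difference was 0.079 ± 0.084 and not called, opposite in sign to the brighter one, so the lower SPIB values of JEKO BR were seen on 1 of its 2 probe sets. BACH2 fell in HBL2 on both of its probe sets, by 0.56 and by 0.24 ± 0.068 (adjusted p = 0.041 for the dimmer). For the difference of changes the dimmer one of BACH2 was not called (-0.18 ± 0.11, adjusted p = 0.40). The dimmer one of SPIB was called (-0.68 ± 0.11, adjusted p = 0.0016). ELL2 rose on 3 of 4, with changes of 0.91, 0.86 and 0.49, and the dimmest was not called (-0.12 ± 0.15). The one with 0.49 reached the array median only on the 3 HBL2 BR arrays (0.861 to 1.23). It passed the filter through that group alone and adds no support. For the difference of changes the brightest 2 of ELL2 were called. The others were not (0.48 ± 0.16, adjusted p = 0.11, and -0.27 ± 0.23, adjusted p = 0.60). For PRDM1 the dimmer probe sets were higher in HBL2 BR by 0.21 ± 0.069 (adjusted p = 0.074) and 0.18 ± 0.080 (adjusted p = 0.24), smaller than on the brightest. The second probe set of IRF4 was not called, with differences of 0.22 ± 0.12 in HBL2 and -0.21 ± 0.14 in JEKO, where JEKO BR replicate 2 (0.456) lay well under the other 3 arrays (0.872 to 0.89). POU2AF1, PAX5 and BHLHA15 each had a single probe set that passed the filter, so their changes have no such check.

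**Figure D3:**
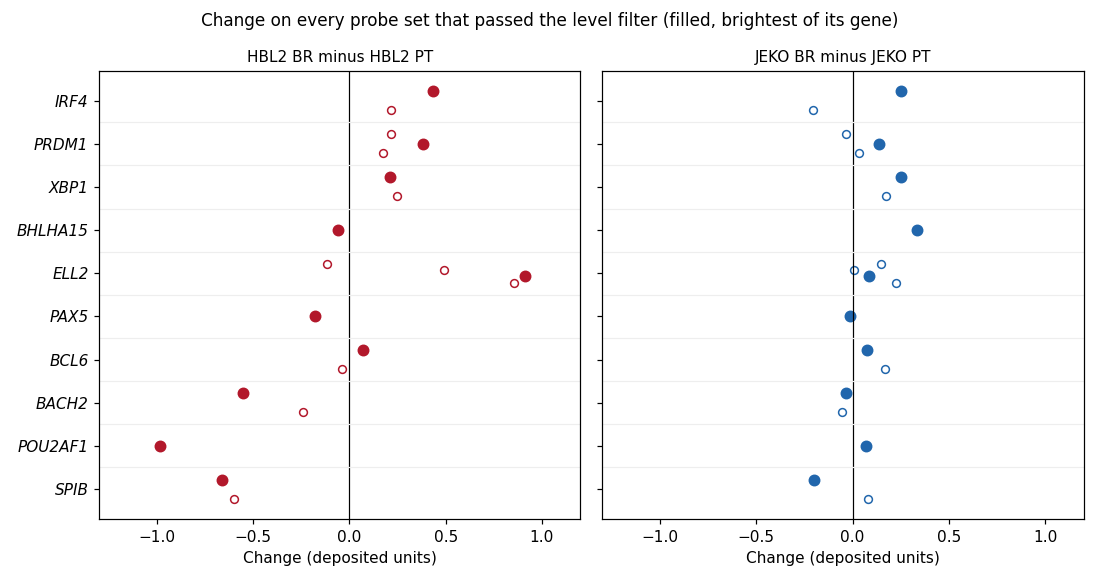
Change of every passing probe set of the 10 regulators, BR minus PT, in HBL2 (left) and JEKO (right), in deposited units; filled points are the brightest probe set of a gene. In HBL2 both probe sets of SPIB (-0.66 and -0.60) and BACH2 (-0.56 and -0.24) lie below 0, and 3 of 4 of ELL2 lie above 0.4. The lowest of those 3 passed the filter only through HBL2 BR.

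Other B cell transcription factors were read from a list of 25, of which 22 were tested. In HBL2 BR 7 fell, 2 rose and 13 were not called, beside 6.86% of all genes lower and 4.91% higher, with a median change of -0.14 against -0.001 over all genes. KLF2, a factor of resting lymphocytes, fell by 0.66 ± 0.065, ID3, an inhibitor of E proteins, by 0.48 ± 0.086, and IRF8, a partner of SPIB and PU.1 in B cells, by 0.39 ± 0.066 (adjusted p = 3.34e-06, 0.0012 and 6.51e-04). BATF, an AP-1 factor that binds with IRF4, rose by 0.78 ± 0.059 (adjusted p = 2.06e-07). It averaged 2.16 in HBL2 BR, against 1.38 in HBL2 PT, and 1.56 in JEKO BR, against 1.44 in JEKO PT. The HBL2 change of BATF exceeded the JEKO change by 0.66 ± 0.093 (adjusted p = 3.18e-04). The fall of KLF2 rests on an _s_at probe set and was lost without such probe sets (-0.081, adjusted p = 0.75). In JEKO 0 of the 22 were called by limma (median change 0.0048). Of 11 tested partner proteins of the regulators, such as corepressors and the XBP1 splicing enzyme ERN1, 0 were called in either line (ERN1 differed by 0.036 ± 0.072 in HBL2 and -0.036 ± 0.088 in JEKO).

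Genes that PAX5 is known, mostly from mouse B cells, to activate split in HBL2 BR: of 9 tested, 4 fell, 2 rose and 3 were not called, beside the same shares of all genes. CD72, a B cell inhibitory receptor, fell by 0.81 ± 0.072 and CD79A, a chain of the B cell receptor, by 0.35 ± 0.061. The Wnt factor LEF1 rose by 0.66 ± 0.061 and the IgE receptor FCER2 by 0.63 ± 0.095. FCER2 averaged under the array median in HBL2 PT (0.575), JEKO BR (0.363) and JEKO PT (0.450), against 1.21 in HBL2 BR. It may have passed the filter through HBL2 BR alone, so its rise adds no support. In JEKO 2 rose, NEDD9 (0.39 ± 0.096) and BLNK (0.28 ± 0.071), calls lost in 10 of 23 and 9 of 22 alternatives, including without any 1 JEKO array (adjusted p = 0.10 to 0.23 and 0.088 to 0.29). The BLNK call was also lost without HBL2 BR replicate 2 (0.058), and the NEDD9 change was 0.0073 as a median of its probe sets. BLNK fell in HBL2 BR (-0.25 ± 0.058, adjusted p = 0.0083), which did not hold if HBL2 BR replicate 1 was omitted (adjusted p = 0.056). Of 5 genes tested that PAX5 represses in mouse, 2 fell in HBL2 BR, beside 6.86% of all genes: JCHAIN (-1.08 ± 0.088) and CCR2 (-0.65 ± 0.090). In JEKO BR, where 2.56% of all genes were higher, 1 rose, NOTCH1 (0.29 ± 0.075, adjusted p = 0.039). The NOTCH1 call was lost in 11 of 23 alternatives, including without any 1 JEKO array. It was also lost without any of HBL2 PT replicate 2, HBL2 BR replicate 1 and HBL2 BR replicate 2 (adjusted p = 0.052 to 0.060).

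Germinal centre genes, the setting of BCL6, moved both ways in HBL2 BR, with 3 rises and 3 falls among 13 tested, beside 4.91% of all genes higher and 6.86% lower. RGS13, a regulator of G protein signalling, rose by 0.88 ± 0.12, ELL3, a relative of ELL2, by 0.37 ± 0.074, and the migration receptor S1PR2 by 0.33 ± 0.060, while GCSAM fell by 0.53 ± 0.078. RGS13 was not called on percentile ranks (adjusted p = 0.77) or normal scores (adjusted p = 0.20). In JEKO BR, KLHL6 was the 1 gene called (0.45 ± 0.088), and it fell in HBL2 BR (-0.27 ± 0.072). As a median of its probe sets KLHL6 was called neither in JEKO (0.23, limma adjusted p = 0.27) nor in HBL2 (-0.20, adjusted p = 0.18). KLHL6 lost the JEKO call if JEKO PT replicate 1 (adjusted p = 0.067) was omitted, or JEKO PT replicate 2 (0.060) or JEKO BR replicate 2 (0.15), and the HBL2 call without PT replicate 2 (0.059), PT replicate 3 (0.071) or BR replicate 1 (0.11) of that line.

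Genes of the secretory pathway that depend on XBP1 were called about as rarely as genes at large, 3 of 29 in HBL2, beside 11.8% of all genes, and 1 of 29 in JEKO, beside 4.28%. Of the 29, SEC61B, a subunit of the protein-conducting channel, rose in HBL2 BR (0.37 ± 0.055), CRELD2 (-0.38 ± 0.066) and HERPUD1 (-0.26 ± 0.065) fell, and 26 were not called, with a median change of 0.060 against -0.001 over all genes. With percentile ranks SEC61B was not called (adjusted p = 0.22). HERPUD1 lost its call when _x_at and _s_at types were dropped (adjusted p = 0.32) and without HBL2 BR replicate 1 (0.076) or HBL2 BR replicate 2 (0.052). In JEKO BR the folding enzyme FKBP11 rose (0.50 ± 0.085, adjusted p = 0.0031; 0.066 without JEKO BR replicate 2) and 28 were not called (median 0.030, against 0.012). Between the lines, 10 of the 29 were higher in HBL2 PT than in JEKO PT and 2 lower, beside 13.9% and 9.25% of all genes.

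In the super elongation complex, where ELL2 acts, 1 of 10 genes rose in HBL2 BR, beside 4.91% of all genes. There 1 fell, beside 6.86%, and 8 were not called. The ELL-associated factors moved oppositely: EAF2 fell by 0.40 ± 0.067 (adjusted p = 6.07e-04) and EAF1 rose by 0.29 ± 0.081 (adjusted p = 0.026). The EAF1 call was lost in 9 of 23 alternatives, including the removal of PT replicate 1 or 3 or of BR replicate 1 or 2 of HBL2 (adjusted p = 0.069 to 0.12). In JEKO 0 of the 10 were called by limma, with CDK9, the kinase of the complex, at -0.30 ± 0.082 (adjusted p = 0.0505).

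**Figure D4:**
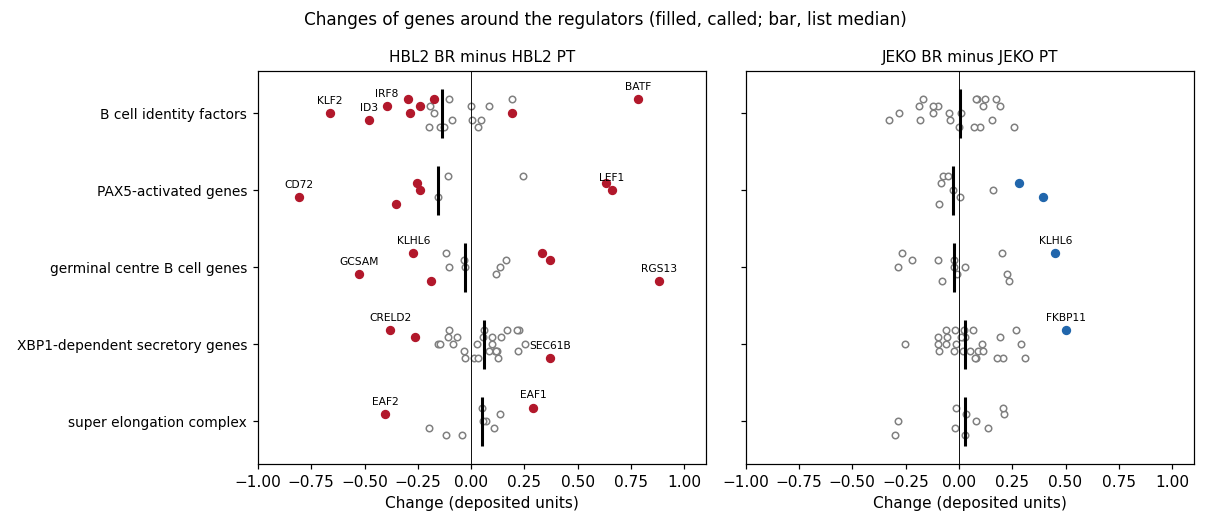
Change of single genes (points) in 5 groups around the regulators, BR minus PT, in HBL2 (left) and JEKO (right), in deposited units; filled points were called and the bar is the group's median. In HBL2, BATF (0.78) and KLF2 (-0.66) stand at opposite ends of the B cell factors, and few genes were called in JEKO.

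Some genes followed a regulator closely across the 10 arrays. Likeness was measured as the root mean square difference between 2 genes after each was centred on its own mean, where the arrays share line and treatment, so that it describes these samples. POU2AF1, which varied by 0.57 units about its mean, was matched best by the class II gene HLA-DPA1 (0.057 units) and by EVL, an actin regulator (0.064). ELL2 (0.39) was matched by the phosphatase gene PPM1L (0.074) and the cytokine gene IL7 (0.079). PRDM1 (0.29) was matched by ASNS, asparagine synthetase (0.059), and ENC1 (0.069), and IRF4 (0.21) by UBE2E1 (0.065) and RABEP1 (0.074). BACH2 (0.45) was matched by CLCN4 (0.083) and the sialyltransferase ST6GAL1 (0.090), SPIB (0.28) by RALGPS2 (0.099) and ACTR3 (0.099), and XBP1 (0.20) by PODXL (0.050) and PIGB (0.057). In HBL2 BR the matches of POU2AF1 fell by 0.94 ± 0.095 (HLA-DPA1) and 1.05 ± 0.077 (EVL), and PPM1L rose by 1.01 ± 0.065. The matches of XBP1 were not called there (PODXL 0.14 ± 0.064 and PIGB 0.13 ± 0.061, limma adjusted p = 0.20 for each). All matches were chosen for likeness on these same arrays, so their changes follow from the choice and add no support.

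Genes next to the regulators on their chromosomes were mostly not called. Up to 5 tested neighbours on each side gave 97 genes over the 10 regulators, of which 14 were called in HBL2 and 9 in JEKO, beside 11.8% and 4.28% of all genes. In HBL2, 0 of 10 neighbours of POU2AF1 on chromosome 11 and 0 of 10 of BACH2 on chromosome 6 were called by limma. SPIB on chromosome 19 had 3 called neighbours in HBL2: NAPSB fell by 1.08 ± 0.082 in HBL2 BR and by 0.37 ± 0.10 in JEKO BR, and MYBPC2 by 0.34 ± 0.083 and 0.38 ± 0.10 in the same order, while JOSD2 rose in HBL2 BR (0.30 ± 0.068) and was not called in JEKO. RHOBTB3, a neighbour of ELL2 on chromosome 5, rose in HBL2 BR (0.38 ± 0.061) and in JEKO BR (0.54 ± 0.075). In JEKO, 3 neighbours of POU2AF1 fell (RDX, PPP2R1B and ALG9, by 0.34 to 0.41) and 2 of IRF4 on chromosome 6 rose (GMDS by 0.79 ± 0.082 and DUSP22 by 0.33 ± 0.089). Neighbours were chosen for reading after the data were seen.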

How the data were processed

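Expression was measured on 10 Affymetrix arrays, and the deposited table holds a score for each of 54675 probe sets. MAS5 is named, without version or role, per the submitters' processing notes; no source used here gives later steps. Sorted deposited scores were identical on every array (largest difference 0), so global shifts cannot be seen. The values resemble logarithms of unknown base, and the log2 step written in the plan for linear values was not applied. Precision is limited by the number of arrays.

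The platform annotation gives 1 symbol for 41091 probe sets, which were used, several for 1801 and none for 11721, and 62 were controls. Gene numbers of 41037 were found in the RefSeq gene table (GRCh38.p14), and 0 symbols needed updating. A probe set was kept at or above the array median on at least 2 arrays, and the brightest represented its gene.

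The fit used lmFit, contrasts.fit and eBayes of limma (version 3.58.1, R version 4.3.3) with a trend on mean score. It had 4 group means, 6 residual and on average 9.89 prior degrees of freedom. Tests were two-sided and adjusted by Benjamini-Hochberg over 14529 genes. The ± of a change is its SE and that of a mean its SD; intervals are at 95%. The fit was tested on simulated data.

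The members and gene lists were chosen with earlier results of these data known. Named genes were all members, up to 4 called genes per list and line with the largest change (all where a list had 5 or fewer called), label markers, and the 2 genes most like each called member. ERN1, CDK9, ITGAM, CD14 and the chromosomal neighbours are named besides, chosen after their values were seen. Replicate numbers were not used as pairs: deviations of same-numbered BR and PT arrays correlated at 0.0075 to 0.14 across genes. Alternatives were other filters, variance models, array weights, each line alone, a replicate block, other probe set rules, percentile ranks, normal scores, the beta-actin covariate, leaving out each array and, added after seeing the data, leaving out the 3 arrays of lowest beta-actin value.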

Additional observations from a re-analysis of the deposited data

Results flagged for a closer look

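For 4 regulators the change in HBL2 differed from the change in JEKO by a test of that difference. The HBL2 change minus the JEKO change was 0.826 for ELL2, -0.524 for BACH2, -1.05 for POU2AF1 and -0.46 for SPIB. ELL2 and POU2AF1 stayed called in all 22 alternatives run, SPIB in 20 of 22 and BACH2 in 16 of 21. With probe sets fitted one by one, the difference was not called on the dimmer one of BACH2 or the dimmest 2 of ELL2. Groups of 2 or 3 arrays were too small to be screened for outlying arrays.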

How the results depend on the processing

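Of 1115 results for single regulators under the alternatives, 1071 kept their side of the threshold, 37 lost a call, 7 gained one and 0 called changes turned direction; 22 uncalled changes changed sign. In HBL2 the number of regulators called was 6 or 7 with each array left out and 5 to 7 in the other alternatives. In JEKO it was 0 to 1 with each array left out, and 1 with array weights, with each line fitted alone, with percentile ranks and with the beta-actin covariate. Between HBL2 PT and JEKO PT it was 3 to 6 with each array left out, 3 without JEKO PT replicate 1, and 3 with the median over probe sets and with percentile ranks. Counts over all genes moved more. With array weights they were 2684 in HBL2, 1032 in JEKO and 1948 for the difference of changes, against 1711, 622 and 1266, and with no intensity trend the JEKO count was 389. With each array left out they ran from 1114 (without HBL2 BR replicate 2) to 1647 in HBL2 and from 114 (without JEKO BR replicate 2) to 945 (without HBL2 PT replicate 3) in JEKO, where the other JEKO arrays gave 208 to 280. For the difference they ran from 661 (JEKO BR replicate 2; 690 and 839 without the first and second JEKO PT array) to 1479. Between the PT cells they ran from 1984 (JEKO PT replicate 2; 2019 without JEKO PT replicate 1) to 3615, against 3361, and between the BR cells from 2430 (JEKO BR replicate 2) to 4611, against 4083. Omitting the 3 arrays with the lowest beta-actin values gave 135 in JEKO, 620 for the difference and 2549 between the BR cells. The cause was not tested, beyond the smaller number of arrays fitted. Where 1 JEKO array is left out, the lone array of its group is assumed to vary like the others. With the replicate block the counts of regulators called were 6 in HBL2, 0 in JEKO and 4 for the difference, the XBP1 call in HBL2 was lost (0.21, adjusted p = 0.052), and the counts over all genes were 1741, 601 and 1257. Same-numbered arrays were not the best match in each case, so the block is no evidence of pairing. BACH2 has no value without _s_at probe sets, since both of its probe sets are of that kind.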
